A study of Mus musculus with 21 samples.

Results

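The comparison described here is that of livers with Mboat7 deleted in hepatocytes (KO) against Mboat7 wildtype livers (WT) in mice fed HFMCD, a high-fat, choline-deficient diet with low methionine. It was taken by its labels, genotype and diet, and holds 8 of the 21 libraries of the study, 4 KO and 4 WT, each from the RNA of 1 numbered animal. The other 13 libraries come from mice of both genotypes on chow (7 KO and 6 WT) and are used only where the diets are set side by side. Mice of both HFMCD groups were 6 to 8 weeks old when the diet began and ate it for 6 weeks, and whole livers were perfused with PBS before total RNA was extracted. The labels name neither the Cre driver nor the exons removed, and the genotype label gives hepatocytes as the cells targeted. The series title names liver fibrosis after loss of hepatic Mboat7, and this comparison asks which transcripts differ with that loss in mice on this diet.

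Mboat7 is a membrane-bound enzyme that joins arachidonic acid to lysophosphatidylinositol, and so shapes the acyl chains of phosphatidylinositol, a phospholipid of cell membranes and the precursor of phosphoinositide signals. Diets without choline and with little or no methionine limit the making of phosphatidylcholine and the export of lipoproteins. They are used to produce fatty liver with inflammation and fibrosis in mice. In injured livers, cells of the bile ducts and progenitor-like cells can multiply at the edge of the portal tracts, a process called ductular reaction, while stellate cells turn into myofibroblasts that lay down collagen.

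The 8 libraries held 22617598 to 25822972 counts each, and no 2 libraries were identical. Levels are given in CPM, reads of a gene scaled by the size of its library. A gene is "called" where the edgeR quasi-likelihood test passed a Benjamini-Hochberg threshold of 0.05, adjusted over the 14424 genes tested. The p-values measure the spread between these 8 samples. On the first principal component (30.7% of the variance of log2 CPM) the KO libraries lay between -38.8 and -8 and the WT libraries between 15.4 and 21, and KO replicate 2 stood farthest from the others. The 4 Y-linked genes looked for had 0 counts in every library. Of genes of gallbladder mucosa, Dmbt1 had 1 count over the WT libraries and 0 over the KO libraries, and Muc6 and Muc5b had 0. Because the samples are whole liver, fewer cells of a type and less RNA per cell cannot be told apart in any result given here.

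Mboat7 (chromosome 7, 3677789 to 3693523, minus strand, GRCm38) checked the genotype labels. Its level was 37.5, 38.1, 39.8 and 41.3 CPM in the WT libraries and 22.5, 16.9, 20.2 and 21.5 CPM in the KO libraries. Every KO library lay below every WT library, at about the same distance, and transcript was still counted in all of them. The log2 fold change was -0.95 (SE 0.10, edgeR adjusted p = 0.00071), and an exact permutation test of the CPM over the 8 libraries gave a two-sided p of 0.0286, the smallest that 4 against 4 allows. Tsen34, a gene on the opposite strand, shares exonic bases with Mboat7, and the strand setting of the counting is not given in the sources used here.

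Over all 14424 genes, 296 were called (2.05%), of which 216 were higher in KO (1.5%) and 80 lower (0.555%). At an unadjusted edgeR p under 0.05 there were 2101 genes (14.6%), in either direction. In the plot of fold change against level the genes called higher lie mainly at low levels, with a median log2 fold change of 1.0, while those called lower reach the most abundant genes with a median of -0.59. All 296 called genes had no overlap between the 4 KO and 4 WT libraries. Over all genes tested, 5.02% had every KO library above and 4.19% every KO library below. Calls and lack of overlap rest on the same values of the same 8 libraries. Here and below, a lack of overlap therefore describes a called gene and is no further support for its call. A change of at least 1 on the log2 scale was reached by 123 of the called genes, 15 of them lower. The median log2 fold change of all genes was 0.00.

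**Figure D1:**
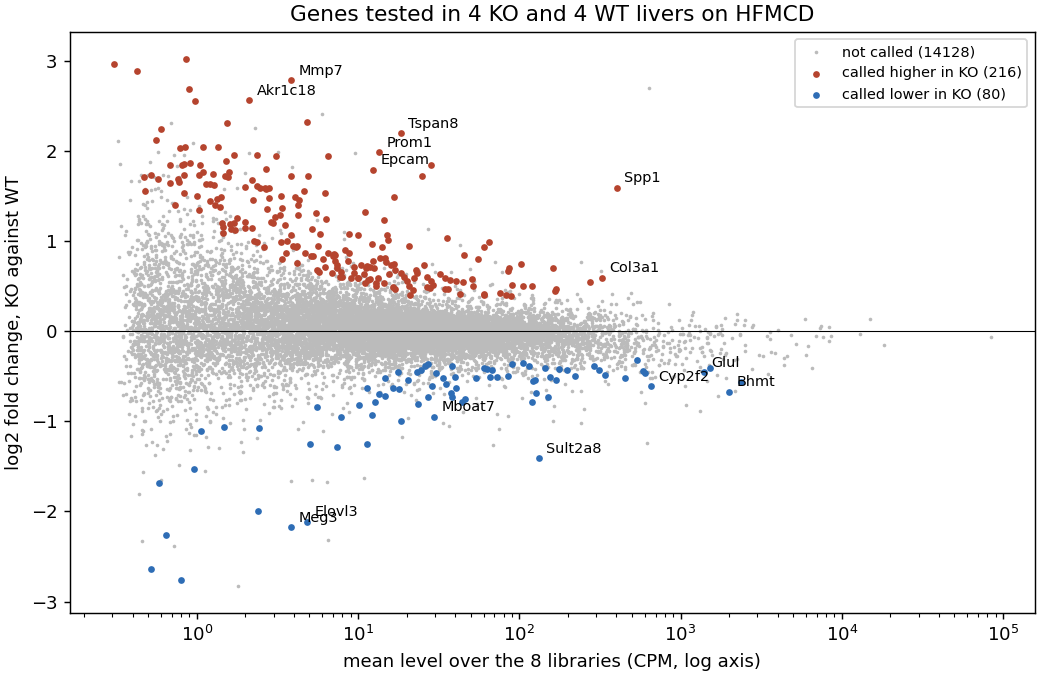
Each point is 1 of the 14424 genes tested; the x axis gives its mean level over the 8 libraries in CPM on a log axis and the y axis its log2 fold change, KO against WT on HFMCD. The 216 genes called higher and 80 called lower are coloured, and most of the genes with a large rise, such as Mmp7 and Akr1c18, are of low level, with Spp1 as an abundant exception.

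The calls changed when 1 library was left out, which also leaves fewer samples, and with the fit. Without 1 library, 125 to 305 genes were called, and the count fell by more than 1.5 times without WT replicate 1 (165 genes), WT replicate 2 (125 genes) or WT replicate 3 (127 genes). Of the 296 genes, 97 were called in each of the 8 fits without a library, and none changed sign. When all 21 libraries shared 1 estimate of the spread, 50 genes were called, 45 of them among the 296. For each gene named below, loss of its call without 1 library is stated where it occurred. Of the 84 called genes named by rule, 67 lost the call in the fit of all 21 libraries. That loss is given below for few of them, so silence does not mean that a call held there.

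Among 20 lysophospholipid acyltransferases, the family to which Mboat7 belongs, 1 was called higher and 1, Mboat7 itself, lower, with a median log2 fold change of -0.01. The gene called higher was Mboat1, an acyltransferase that prefers lysophosphatidylserine, at 0.533, 0.627, 0.833 and 0.834 CPM in WT and 1.85, 2.09, 1.40 and 2.175 CPM in KO. All 4 KO livers were above all WT livers at a low level (log2 fold change 1.40, SE 0.27, edgeR adjusted p = 0.018), and the call was lost without KO replicate 4, WT replicate 1 or WT replicate 2, with an adjusted p of at most 0.07. Of 25 genes for phosphatidylinositol synthesis and its kinases edgeR called 0 in either direction, with 1 at an unadjusted p under 0.05, and DESeq2 and limma-voom called 0. The member with the smallest p was Pi4kb, a phosphatidylinositol 4-kinase, with a mean of 39.8 ± 1.30 CPM (SD, n = 4) for WT and of 34.95 ± 1.88 CPM (SD, n = 4) for KO (edgeR adjusted p = 0.29).

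The calls were also counted by gene list. Each count below is to be read beside the shares over all genes tested. These were 1.5% called higher, 0.555% called lower and 14.6% at an unadjusted p under 0.05 in either direction. At these shares a single call says little about a list. The 45 lists were chosen with earlier results of these data known, so their shares describe the calls and are no independent support. The plot of called shares shows bile duct epithelium with the greatest share of members called, followed by collagens, fetal and progenitor genes, matrix and mesothelium, all higher in KO.

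**Figure D2:**
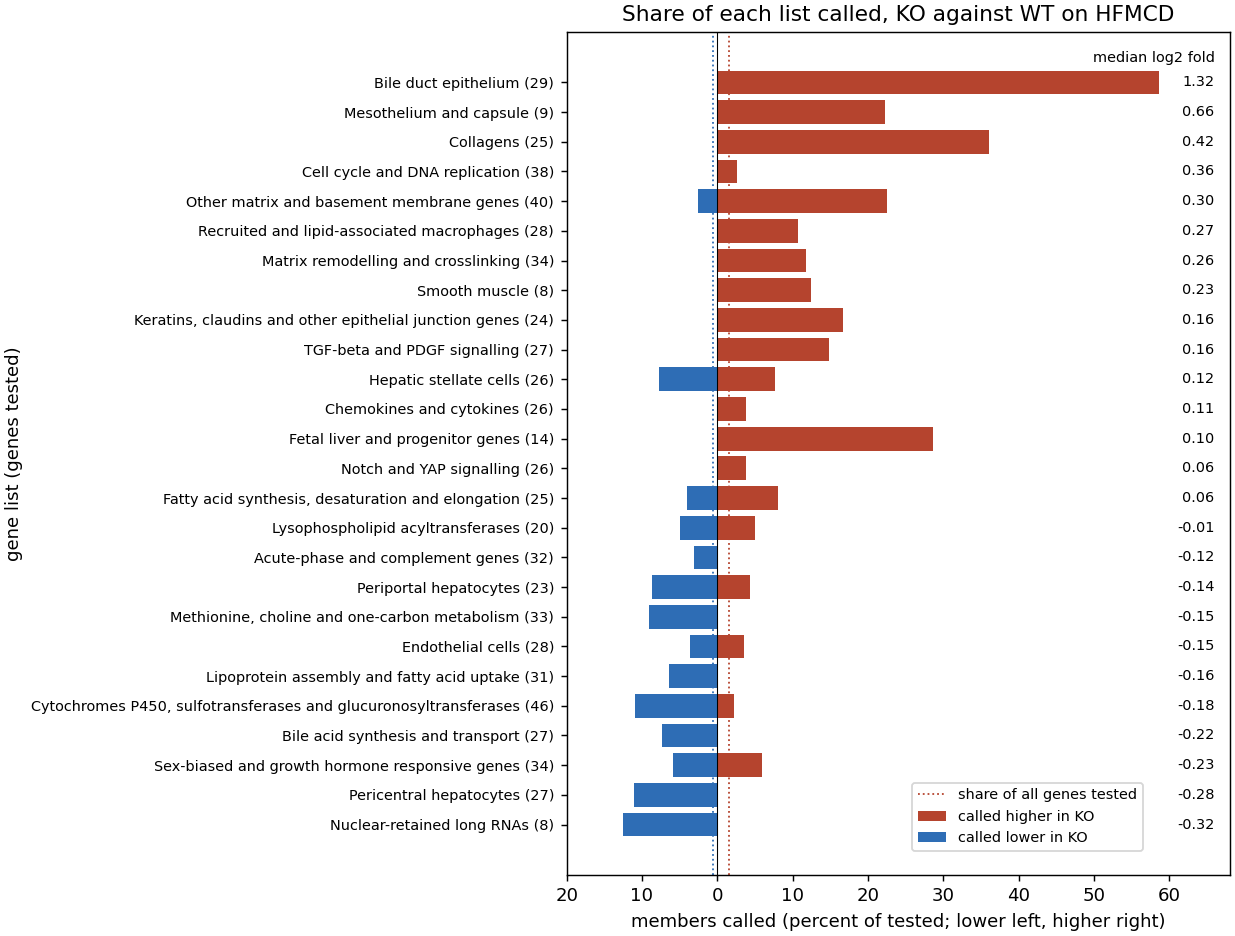
For each gene list with 1 or more called members and 8 or more genes tested, bars give the percent of tested members called higher in KO (right) or lower (left), dotted lines the same share over all genes tested, and the figures at the right the list's median log2 fold change. Bile duct epithelium (29 genes, median 1.32) and collagens (25 genes, median 0.42) reach furthest to the right.

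Most listed bile duct epithelium genes were higher in KO livers. The list, like the others, was chosen with earlier results of these data known, so its share beside that of all genes is a description. Of 30 listed genes 29 were tested, 17 were called higher and 0 lower, against 1.5% and 0.555% of all genes tested, 28 had a positive log2 fold change, and the list's median was 1.32 against 0.00 over all genes. The summed level of the list was 486 to 557 CPM in WT livers and 1002 to 1370 CPM in KO livers, with KO replicate 2 the highest. The same list had 14 to 18 called members when any 1 library was left out and 17 without KO replicate 2, where its median was 0.88, and 12 were called in the fit of all 21 libraries. Of the 12 members not called, Slc4a2, an anion exchanger that hepatocytes carry as well, was the 1 with a negative value (log2 fold change -0.18, edgeR adjusted p = 0.39).

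Promoters of 3 genes that rose in KO are printed here because they belong to the duct and injury programmes described next and hold a match to a motif searched. Each runs from 250 bases before to 50 bases after the gene's start, on the gene's strand, from RefSeq on GRCm38.p6. Capitals mark the TEAD motif GGAATG in Ankrd1 (chr19:36119795-36120094, minus strand, 2 matches) and the AP-1 motif TGANTCA in Prom1 (chr5:44101687-44101986, minus strand, 1 match) and Mmp7 (chr9:7691840-7692139, plus strand, 1 match).
Ankrd1: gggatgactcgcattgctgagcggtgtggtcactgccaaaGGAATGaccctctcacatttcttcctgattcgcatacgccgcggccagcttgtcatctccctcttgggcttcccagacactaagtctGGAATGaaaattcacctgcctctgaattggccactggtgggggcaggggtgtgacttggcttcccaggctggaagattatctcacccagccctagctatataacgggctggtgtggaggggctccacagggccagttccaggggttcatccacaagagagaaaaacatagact
Prom1: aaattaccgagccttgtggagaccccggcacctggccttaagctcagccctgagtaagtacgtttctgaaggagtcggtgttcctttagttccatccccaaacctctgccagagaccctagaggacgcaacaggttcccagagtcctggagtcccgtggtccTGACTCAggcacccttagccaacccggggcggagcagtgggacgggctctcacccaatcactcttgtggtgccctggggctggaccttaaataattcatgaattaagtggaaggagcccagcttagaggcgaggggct
Mmp7: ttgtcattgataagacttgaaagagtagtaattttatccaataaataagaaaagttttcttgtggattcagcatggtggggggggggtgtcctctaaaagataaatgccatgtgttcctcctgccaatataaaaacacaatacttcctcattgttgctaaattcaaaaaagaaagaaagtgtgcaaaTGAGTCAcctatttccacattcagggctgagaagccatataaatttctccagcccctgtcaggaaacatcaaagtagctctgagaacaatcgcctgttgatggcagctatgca

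TEAD factors carry YAP to DNA, and AP-1 is made of Fos and Jun proteins. Each motif was searched on both strands in the 10942 tested genes with a promoter in the reference table, among them 157 of the 216 genes called higher and 60 of the 80 called lower. The TEAD motif was found in 12.0% of all promoters, in 15.3% of those of genes called higher and in 6.7% of those of genes called lower. The AP-1 motif was found in 5.3%, 8.3% and 11.7% of the same sets. The core motif GTTAAT of HNF1, a factor of liver and duct cells, was found in 4.6%, 8.9% and 3.3%. The E-box CACGTG was found in 9.9%, 5.7% and 11.7%, and the RBPJ motif TGGGAA of Notch signalling in 23.7%, 26.8% and 18.3%. Among the 13 duct genes called higher that have a promoter in the table, 3 held AP-1, 3 the HNF1 motif, 3 RBPJ, 2 TEAD and 2 the E-box. These are matches of letters, given without a test.

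Prom1 encodes a pentaspan glycoprotein (CD133) of duct and progenitor cell membranes and had one of the smallest adjusted p-values of all genes. It was at 5.07, 5.31, 6.27 and 5.14 CPM in WT and 16.36, 21.02, 26.01 and 22.68 CPM in KO. The groups lay far apart, with the WT livers close together (log2 fold change 1.98, SE 0.15, edgeR adjusted p = 6.3e-05). In the fit of all 21 libraries it was not called (adjusted p = 0.098).

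Spp1 encodes osteopontin, a secreted phosphoprotein made by duct cells and by lipid-associated macrophages. It was the most abundant member, at 196, 193, 229 and 187 CPM in WT and 520, 767, 596 and 539 CPM in KO. Each KO liver held more than any WT liver, KO replicate 2 most of all (log2 fold change 1.59, SE 0.12, edgeR adjusted p = 6.3e-05).

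Epcam, the adhesion molecule that marks duct against hepatocyte, was at 5.60, 4.93, 6.58 and 5.18 CPM in WT and 18.8, 26.5, 16.2 and 15.7 CPM in KO. Cftr, the chloride channel of duct secretion, was at 0.355, 0.460, 0.789 and 0.966 CPM in WT and 2.79, 2.48, 1.98 and 2.34 CPM in KO. Both separated the genotypes in every library, and KO replicate 2 was high for Epcam but not for Cftr. The log2 fold changes were 1.79 (SE 0.17, edgeR adjusted p = 0.00034) for Epcam and 1.89 (SE 0.30, edgeR adjusted p = 0.0084) for Cftr.

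Sox9, a transcription factor of duct cells and of portal hepatocytes, was at 12.8, 7.40, 9.95 and 9.001 CPM in WT and 20.4, 20.3, 18.9 and 14.8 CPM in KO. Among the keratins of duct cells, Krt19 was at 2.31, 2.47, 2.85 and 1.76 CPM in WT and 7.38, 10.2, 5.195 and 4.954 CPM in KO, and Krt7 was at 1.42, 1.59, 1.62 and 1.27 CPM in WT and 3.44, 6.97, 3.18 and 2.82 CPM in KO. None of these 3 genes had a KO library within the WT range. Their log2 fold changes were 0.93, 1.56 and 1.47 with edgeR adjusted p of 0.011, 0.0079 and 0.020, and the call of Krt7 was lost without any 1 of the WT replicates (adjusted p up to 0.061).

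Mmp7, matrilysin, a metalloprotease of injured duct epithelium, had the largest log2 fold change among the genes named by rule. It was at 0.933, 1.38, 0.964 and 0.615 CPM in WT and 5.54, 14.4, 3.88 and 3.22 CPM in KO. KO replicate 2 held far more than the other KO livers, which were themselves all above WT (log2 fold change 2.79, SE 0.53, edgeR adjusted p = 0.033). The call was lost without KO replicate 1 or without any 1 of the WT replicates (adjusted p up to 0.11), and the log2 fold change without 1 library ran from 2.10 to 3.01.

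The other duct genes called higher were Cdh6, a cadherin (log2 fold change 1.95), Cldn7, a claudin (1.80), Muc1, a membrane mucin (1.5), Cd24a, a surface glycoprotein of progenitors (1.48), Pdzk1ip1 (1.45), Dcdc2a, a doublecortin-domain protein of cilia (1.32), Bicc1 (1.03), Pkhd1, which encodes fibrocystin of the primary cilium (0.81), and Ezr, which links actin to the apical membrane (0.68). Their edgeR adjusted p ran from 0.00083 for Cd24a to 0.017 for Bicc1, and the call of Bicc1 was lost without any 1 of the WT replicates (adjusted p up to 0.057). Members that missed the threshold included Anxa4, an annexin (log2 fold change 0.36, edgeR adjusted p = 0.051), and Lamc3, a laminin chain (log2 fold change 1.10, edgeR adjusted p = 0.092).

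**Figure D3:**
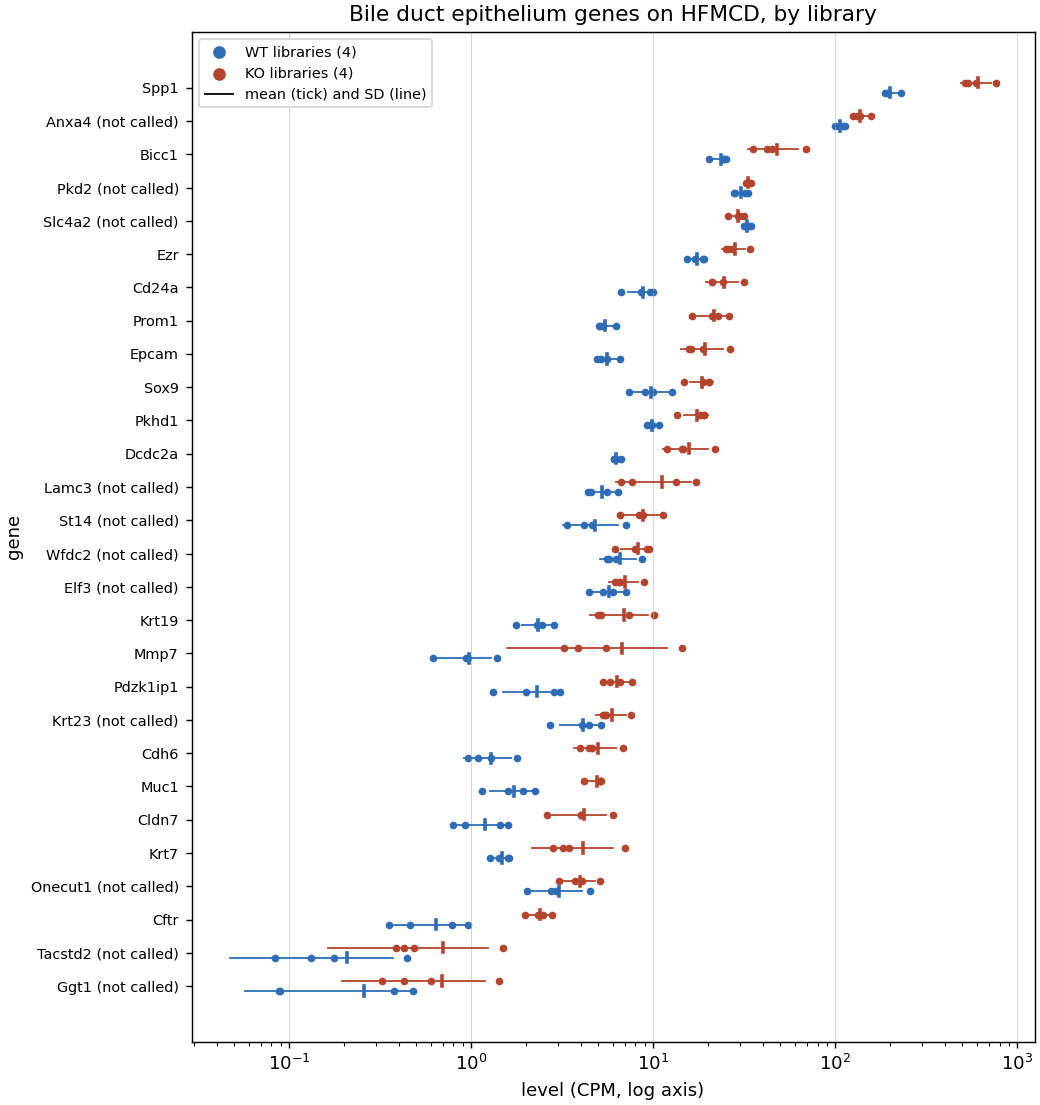
The level of 28 of the 29 tested bile duct epithelium genes in each of the 4 WT and 4 KO libraries on HFMCD, in CPM on a log axis; ticks are group means and lines 1 SD either side. The 17 called genes separate the groups in every library, from Cftr at the low end to Spp1 at the high end, and most of the genes marked as not called lie closer together or overlap.

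Other epithelial genes rose beside them. Of 24 keratin, claudin and junction genes tested, 4 were called higher and 0 lower (median 0.16). These were Cdh1, which encodes E-cadherin and is expressed by hepatocytes and duct cells, the tight junction genes Cldn8 and Cldn4, and Esrp1, given below. Cdh1 was at 63.9, 62.4, 71.6 and 66.1 CPM in WT and 102.7, 116.2, 97.65 and 112.5 CPM in KO. The groups did not overlap and each was tight (log2 fold change 0.70, SE 0.08, edgeR adjusted p = 0.0018). Cldn8 (1.73) and Cldn4 (1.68) were below 6 CPM in every liver, and the call of Cldn4 was lost without KO replicate 1 or WT replicate 1, 3 or 4 (adjusted p up to 0.092).

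Tspan8, a tetraspanin of epithelia, was at 5.11, 6.36, 9.03 and 5.84 CPM in WT and 31.6, 36.9, 28.5 and 23.4 CPM in KO. Ehf, an epithelial transcription factor of the ETS family, was at 2.49, 2.80, 2.54 and 2.94 CPM in WT and 10.7, 13.2, 8.64 and 8.94 CPM in KO. Sftpd, the collectin surfactant protein D, was at 1.38, 1.71, 2.32 and 1.01 CPM in WT and 9.02, 9.17, 9.03 and 4.95 CPM in KO. All 3 genes were several times higher in KO and their groups did not overlap, although KO replicate 4 held less Sftpd than the other KO livers. The log2 fold changes were 2.19, 1.94 and 2.32, with edgeR adjusted p of 0.00015, 0.00014 and 0.0015.

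The remaining genes with the largest rises were also of low level. Akr1c18, a steroid-converting aldo-keto reductase, was at 0.613 ± 0.293 CPM (SD, n = 4) in WT livers and at 3.62 ± 0.911 CPM (SD, n = 4) in KO livers, without overlap (log2 fold change 2.56, SE 0.33, edgeR adjusted p = 0.0026). Scube3, a secreted signalling cofactor, rose by 1.96, and Fbn2, a fibrillin of elastic microfibrils, by 1.95. Esrp1, an epithelial splicing regulator (2.04), and Klc3, a kinesin light chain (1.77), were called as well. The call of Esrp1 was lost in 5 of the 8 fits without 1 library (without KO replicate 1 or any WT replicate, adjusted p up to 0.095), and that of Klc3 in 4 (without KO replicate 1 or WT replicate 1, 3 or 4, adjusted p up to 0.072). Several further epithelial regulators, chosen after their values were seen, were called higher: Klf5 (1.44), Grhl2 (1.35) and Glis3 (1.40), transcription factors, and Itga6 (1.08) and Itgb4 (1.25), which form a laminin receptor. Of these, Itga6 was called in every fit without 1 library, whereas Klf5, Grhl2, Glis3 and Itgb4 lost it without some: Klf5 without KO replicate 2 or 3 or WT replicate 2, 3 or 4, Grhl2 without any but WT replicate 4, Glis3 without WT replicate 1, 2 or 3, and Itgb4 without any but KO replicate 3 (adjusted p up to 0.072, 0.13, 0.07 and 0.092).

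Of 26 genes of Notch and YAP signalling, 1 was called higher and 0 lower, with a median of 0.06. Over all genes tested 1.5% were called higher and 0.555% lower, so 1 call is no result about the list. That gene was Ankrd1, a target of YAP and TEAD whose promoter is printed above, at 1.33, 1.21, 1.89 and 1.14 CPM in WT and 4.46, 4.96, 3.76 and 3.63 CPM in KO. The KO livers were all above the WT livers (log2 fold change 1.59, SE 0.22, edgeR adjusted p = 0.0031). The other much used YAP targets, Ccn1 and Ccn2, had log2 fold changes of 0.11 and -0.07, with edgeR adjusted p of 0.78 and 0.95. The Notch ligand Jag1 had a log2 fold change of 0.56 (edgeR adjusted p = 0.06) and the target Hes1 of 0.29 (edgeR adjusted p = 0.41).

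Among 14 tested fetal liver and progenitor genes, 4 were called higher and 0 lower (median 0.10). They were Prom1, Cd24a, Sox4 and H19, of which Prom1 and Cd24a are also duct genes. Sox4, a transcription factor of progenitors, was at 14.9, 14.5, 15.7 and 11.2 CPM in WT and 27.35, 29.99, 29.5 and 21.75 CPM in KO. H19, an imprinted long RNA of fetal liver, was at 8.49, 10.0, 13.6 and 17.8 CPM in WT and 38.0, 55.7, 57.4 and 27.3 CPM in KO. Both were higher in each KO liver, and H19 varied more among them. The log2 fold changes were 0.95 (SE 0.13, edgeR adjusted p = 0.0037) for Sox4 and 1.84 (SE 0.30, edgeR adjusted p = 0.024) for H19, whose call was lost without KO replicate 2 or 3 or WT replicate 1, 2 or 3 (adjusted p up to 0.086). Afp, the fetal albumin-like protein, was at 5.86 CPM in WT and 6.25 CPM in KO (edgeR adjusted p = 0.86).

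Most listed collagen genes were higher in KO livers, though not the most abundant one. Of 25 listed genes tested, 9 were called higher and 0 lower, 22 had a positive log2 fold change, and the median was 0.42. At an unadjusted p under 0.05, 13 were higher and 2 lower. The 2 lower were Col18a1, the most abundant, at means of 772 CPM in WT and 668 CPM in KO, and Col5a3. Their log2 fold changes were -0.21 (edgeR adjusted p = 0.32) and -0.55 (edgeR adjusted p = 0.14), and every KO liver was below every WT liver for Col18a1. The summed level of the whole collagen list was 1800 to 1991 CPM in WT livers and 2018 to 2254 CPM in KO livers. Leaving out 1 library left 4 to 7 of the list called higher, the fewest without WT replicate 1, 3 or 4. The fit of all 21 libraries called 0 of the list, with a median of 0.37, while DESeq2 on the 8 libraries called 10 and limma-voom 6.

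Col3a1, the chain of the fibril collagen type III, was the most abundant of those called. It was at 244, 302, 258 and 231 CPM in WT and 364, 372, 412 and 411 CPM in KO. Col5a2, a chain of collagen V, which nucleates fibrils, was at 28.0, 25.2, 25.2 and 23.0 CPM in WT and 38.30, 41.13, 38.22 and 39.96 CPM in KO. Neither gene overlapped between the genotypes, and the KO livers were close together for both. The log2 fold changes were 0.59 (SE 0.10, edgeR adjusted p = 0.0085) and 0.64 (SE 0.09, edgeR adjusted p = 0.0031).

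The chains of collagen I, the main collagen of scar, rose less. Col1a1 was at 93.8, 126, 91.9 and 88.3 CPM in WT and 138, 144, 133 and 150 CPM in KO, and Col1a2 was at 148, 167, 130 and 118 CPM in WT and 183, 207, 184 and 193 CPM in KO. WT replicate 2 was the highest WT liver for both and still lay below every KO liver. The log2 fold changes were 0.50 (SE 0.11, edgeR adjusted p = 0.032) and 0.44 (SE 0.10, edgeR adjusted p = 0.044). The call of Col1a1 was lost in 6 of the 8 fits without 1 library (all but those without KO replicate 3 or WT replicate 2, adjusted p up to 0.11) and that of Col1a2 in 7 (all but that without WT replicate 2, adjusted p up to 0.14).

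Col6a3, of the beaded filaments of collagen VI, was at 48.1, 46.0, 44.1 and 34.8 CPM in WT and 87.76, 108.4, 62.49 and 84.63 CPM in KO, so that its level doubled (log2 fold change 0.99, SE 0.15, edgeR adjusted p = 0.0089). Col8a1 (0.94) was called in each fit without 1 library as well. The basement membrane chains Col4a5 (1.06) and Col4a4 (1.13), found beneath epithelia, and Col15a1 (0.78) were called, but less steadily. The call was lost for Col4a5 without KO replicate 1 or any WT replicate, for Col4a4 without any library but KO replicate 4, and for Col15a1 without KO replicate 3 or 4 or WT replicate 1, 3 or 4, with adjusted p up to 0.086, 0.12 and 0.13. Col9a3, a chain of collagen IX that is not on the list and was named after its values were seen, was called higher at 0.133, 0.167, 0.0877 and 0 CPM in WT and 0.730, 1.063, 0.814 and 0.403 CPM in KO (log2 fold change 2.88, SE 0.56, edgeR adjusted p = 0.019), and its call was lost without WT replicate 3 (adjusted p = 0.067).

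Of 40 further matrix and basement membrane genes, 9 were called higher and 1 lower (median 0.30). Lum, encoding lumican, a proteoglycan that spaces collagen fibrils, was at 126, 125.5, 138.9 and 105.2 CPM in WT and 189, 195, 210 and 211 CPM in KO. Sparc, a collagen-binding glycoprotein, was at 244, 233, 223 and 197 CPM in WT and 300.4, 341, 347 and 323 CPM in KO. Fmod, encoding fibromodulin, was at 6.18, 6.98, 6.58 and 5.93 CPM in WT and 8.97, 12.0, 11.2 and 11.8 CPM in KO. These 3 genes of collagen fibril assembly were higher in each KO liver than in each WT liver, with log2 fold changes of 0.70, 0.55 and 0.78 (edgeR adjusted p of 0.0028, 0.0085 and 0.010).

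Fbn2, given above among the largest rises, also belongs to this list. Ltbp2 (1.07), Lama2 (0.71), Fbn1 (0.59) and Thbs2 (0.50) were called as well. The call of Ltbp2 was lost without WT replicate 2, 3 or 4, those of Lama2 and Fbn1 without any library but KO replicate 3 or WT replicate 1, and that of Thbs2 without any but KO replicate 1 or 3, with adjusted p up to 0.076, 0.096, 0.10 and 0.11. The matrix gene called lower was Ecm1, a secreted glycoprotein made in healthy liver by hepatocytes that holds latent TGF-beta inactive, at 144, 164, 147 and 140 CPM in WT and 99.26, 106.9, 107.1 and 95.78 CPM in KO. No KO liver reached the WT range (log2 fold change -0.54, SE 0.08, edgeR adjusted p = 0.0057), and its call held in each fit without 1 library and in the fit of all 21 libraries.

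**Figure D4:**
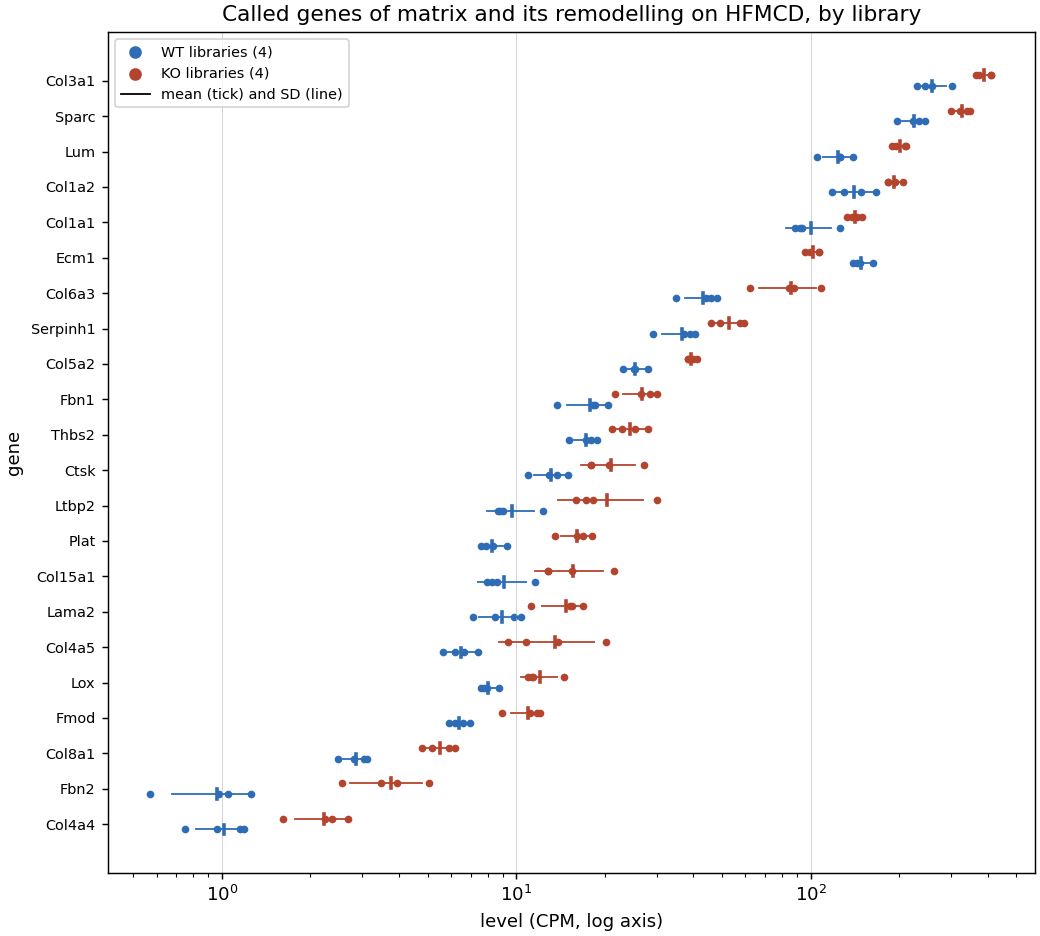
The level of called genes of the collagen, matrix and matrix remodelling lists in each of the 4 WT and 4 KO libraries on HFMCD, in CPM on a log axis; ticks are group means and lines 1 SD either side. In every gene shown the 4 KO libraries lie above the 4 WT libraries, except Ecm1, where they lie below.

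Of 34 genes that cut, inhibit the cutting of, or crosslink matrix, 4 were called higher and 0 lower (median 0.26). Plat, tissue plasminogen activator, was at 9.29, 8.32, 7.89 and 7.60 CPM in WT and 16.06, 18.03, 13.57 and 16.84 CPM in KO, without overlap (log2 fold change 0.96, SE 0.12, edgeR adjusted p = 0.0026). Lox, which crosslinks collagen (0.59), Serpinh1, the collagen chaperone (0.54), and Ctsk, a collagen-cutting cathepsin (0.67), were called as well. Each lost the call without any 1 of the WT replicates, Lox also without KO replicate 1 or 4, Serpinh1 without KO replicate 1, 3 or 4 and Ctsk without KO replicate 2 or 3, with adjusted p up to 0.099, 0.089 and 0.094. Leaving out any 1 WT replicate left 1 called gene in this list. Timp1, the metalloprotease inhibitor often followed in fibrosis, had a log2 fold change of 0.37 (edgeR adjusted p = 0.33).

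Hepatic stellate cell genes moved in both directions, with 2 of 26 called higher, 2 lower and a median of 0.12. Those called higher included Tagln, the actin-binding SM22 of contractile cells, at 17.4, 19.8, 18.8 and 16.4 CPM in WT and 23.7, 33.9, 25.6 and 30.2 CPM in KO. The genes called lower were Colec10, a collectin of quiescent stellate cells, at 51.4, 59.1, 51.3 and 62.9 CPM in WT and 29.7, 26.6, 33.6 and 40.5 CPM in KO, and Angptl6, at 11.06, 13.96, 13.54 and 13.4 CPM in WT and 8.16, 7.75, 8.06 and 5.40 CPM in KO. In none of these 3 genes did the groups overlap. The log2 fold changes were 0.65 for Tagln and -0.79 and -0.82 for Colec10 and Angptl6, with edgeR adjusted p between 0.0079 and 0.016, and the call of Angptl6 was lost without WT replicate 2 (adjusted p = 0.051). Acta2, smooth muscle actin of myofibroblasts, had a log2 fold change of 0.69 (edgeR adjusted p = 0.084), Des, desmin, of 0.15 (edgeR adjusted p = 0.63) and Pdgfrb of 0.35 (edgeR adjusted p = 0.20).

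Of 27 genes of TGF-beta and PDGF signalling, 4 were called higher and 0 lower (median 0.16). The ligands Tgfb1 (log2 fold change 0.12, edgeR adjusted p = 0.60) and Tgfb2 (0.78, edgeR adjusted p = 0.076) missed the threshold, and the PDGF ligand Pdgfd passed it (0.86). Itgb8 (1.18) and Itgb6 (2.03), integrin chains that release latent TGF-beta, and the TGF-beta target Pmepa1 (0.72) were also called. Pmepa1 was at 8.80, 8.40, 9.16 and 8.04 CPM in WT and 12.5, 17.2, 13.6 and 13.3 CPM in KO, without overlap (SE 0.12, edgeR adjusted p = 0.011). Pdgfd and Itgb6, the second below 2 CPM in every liver, each lost the call without KO replicate 2 or WT replicate 1 or 2, Pdgfd also without KO replicate 1 or WT replicate 3 and Itgb6 without KO replicate 3 or WT replicate 4, with adjusted p up to 0.076 and 0.079.

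Genes of other cells were compared with the same test. Of 9 tested mesothelium genes, 2 were called higher, Krt19, which duct cells share, and Gpm6a (0.94, lost without WT replicate 3, adjusted p = 0.06), and the list's median was 0.66. Its summed level was 49.6 to 72.4 CPM in WT livers and 88.9 to 97.9 CPM in KO livers. The defining mesothelial genes were not called, with Msln at 0.685 and 1.38 CPM in WT and KO (edgeR adjusted p = 0.38), Upk3b at 1.02 and 1.73 CPM (edgeR adjusted p = 0.33) and Wt1 at 1.83 and 1.96 CPM (edgeR adjusted p = 0.91). The part of capsule tissue in the matrix and keratin results was not tested. Of 8 smooth muscle genes, Tagln was called and the defining gene Myh11 was at 4.09 CPM in WT and 4.27 CPM in KO (edgeR adjusted p = 0.94).

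Among 28 genes of recruited and lipid-associated macrophages, 3 were called higher and 0 lower (median 0.27). They were Spp1, Cd63 and Cd9, all of which duct or other cells also express. Over the whole list 23 log2 fold changes were positive, with 13 genes higher and 1 lower at an unadjusted p under 0.05. Without 1 library, 3 to 7 members were called higher and at most 1 lower. Cd63, a tetraspanin of lysosomes, was at 71.8, 88.3, 79.4 and 69.0 CPM in WT and 114, 156, 125 and 119 CPM in KO. Cd9, another tetraspanin, was at 68.4, 82.9, 79.0 and 66.5 CPM in WT and 101.5, 117.3, 100.2 and 103.6 CPM in KO. Both were higher in every KO liver (log2 fold changes 0.74 and 0.51, edgeR adjusted p of 0.0058 and 0.014). Trem2 and Gpnmb, receptors that define these macrophages, had log2 fold changes of 0.28 and 0.32 (edgeR adjusted p of 0.25 and 0.42), and their share in the Spp1 result was not tested.

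Of 18 Kupffer cell genes edgeR called 0, with 4 lower at an unadjusted p under 0.05 (DESeq2 called 1 lower and limma-voom 0), and Clec4f, which defines resident Kupffer cells, had a mean of 207 ± 20.2 CPM (SD, n = 4) for WT and of 155 ± 46.4 CPM (SD, n = 4) for KO (edgeR adjusted p = 0.32). Of 25 lymphocyte genes edgeR called 0, with 1 at an unadjusted p under 0.05, and of 13 neutrophil genes it called 0, with 0 at that level, DESeq2 and limma-voom calling 0 in both lists. Of 26 chemokine and cytokine genes 1 was called higher, Cx3cl1, a membrane-bound chemokine of epithelium and endothelium (log2 fold change 0.60, edgeR adjusted p = 0.041), whose call was lost in 7 of the 8 fits without 1 library (all but that without KO replicate 3, adjusted p up to 0.12).

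Of 28 endothelial genes 23 had a negative log2 fold change (median -0.15), with 1 called higher and 1 lower. At an unadjusted p under 0.05, 9 were lower and 1 higher. Cd34, a sialomucin of capillary and portal endothelium and of progenitor cells, was at 10.0, 9.91, 11.1 and 9.79 CPM in WT and 17.4, 26.1, 19.3 and 19.2 CPM in KO. Its level doubled without overlap. The general endothelial gene Pecam1 was at 38.3 CPM in WT and 36.3 CPM in KO (edgeR adjusted p = 0.75). Kdr and Tek, also on the list, had log2 fold changes of -0.25 and -0.29 (edgeR adjusted p of 0.30 and 0.17). The log2 fold change of Cd34 was 1.01 (SE 0.13, edgeR adjusted p = 0.0027). Oit3, of sinusoidal endothelium, fell by 0.39 on the log2 scale (edgeR adjusted p = 0.022), a call lost in 5 of the 8 fits without 1 library (KO replicate 1 or 2 or WT replicate 2, 3 or 4, adjusted p up to 0.085).

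Further genes of vascular endothelium, chosen after their values were seen, were called lower. Ehd3, an endosomal protein of sinusoidal endothelium, was at 77.8, 75.5, 78.3 and 77.2 CPM in WT and 55.8, 55.2, 51.4 and 55.1 CPM in KO, with hardly any spread within a genotype (log2 fold change -0.51, SE 0.07, edgeR adjusted p = 0.0038). Clec14a (-0.53), Robo4 (-0.52) and Gpr182 (-0.46) were the others. Clec14a and Ehd3 were called in each fit without 1 library, Robo4 lost the call without KO replicate 4 or any WT replicate and Gpr182 without any library but KO replicate 3 (adjusted p up to 0.068 and 0.11).

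In hepatocyte lipid synthesis, 2 of 25 genes of fatty acid synthesis, desaturation and elongation were called higher and 1 lower, with a median of 0.06. Elovl3, an elongase of very long saturated chains, was at 6.97, 10.9, 7.76 and 5.80 CPM in WT and 2.02, 0.709, 2.67 and 1.85 CPM in KO. All KO livers were below all WT livers, KO replicate 2 lowest (log2 fold change -2.12, SE 0.32, edgeR adjusted p = 0.0085). Srebf1, the transcription factor of lipogenesis, was at 63.1, 70.1, 59.4 and 72.0 CPM in WT and 98.3, 128, 82.3 and 112 CPM in KO, and Scd2, a desaturase, was at 18.6, 21.7, 17.8 and 19.3 CPM in WT and 28.5, 39.1, 26.0 and 35.0 CPM in KO. Both rose without overlap (log2 fold changes 0.67 and 0.73, edgeR adjusted p of 0.016 and 0.011), and the call of Srebf1 was lost without WT replicate 1 or 3 (adjusted p up to 0.061).

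Scd1, the main liver desaturase that makes oleate, was at 153, 130, 191 and 213 CPM in WT and 721, 316, 1520 and 1882 CPM in KO. The KO livers were all above the WT livers but differed among themselves several-fold, KO replicate 2 being lowest. The log2 fold change of 2.69 (SE 0.57) missed the threshold, with an edgeR adjusted p of 0.08. Fasn had a log2 fold change of 0.06 (edgeR adjusted p = 0.90). Scd1 and Fasn were chosen after their values were seen.

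Of 37 genes of fatty acid oxidation and ketogenesis, 36 had a negative log2 fold change, with a median of -0.31, but edgeR called 0, with 17 lower at an unadjusted p under 0.05. Over all genes tested, 14.6% were at that level in either direction. DESeq2 called 5 of them lower and limma-voom 0, and edgeR called 7 lower without WT replicate 4. WT replicate 4 lay at the level of the KO livers in the summed level of the list, 14560 CPM against 20890 to 26780 CPM in the other WT livers and 14040 to 16400 CPM in KO livers.

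Of 26 genes of triglyceride synthesis and lipid droplets edgeR called 0, with 6 lower at an unadjusted p under 0.05 and a median of -0.22. DESeq2 called 4 lower, limma-voom 0, and edgeR called 3 without WT replicate 4. Among lipoprotein and uptake genes 2 of 31 were called, both lower, with 12 lower and 1 higher at an unadjusted p under 0.05. Angptl4, the secreted inhibitor of lipoprotein lipase, was at 132, 179, 174 and 123 CPM in WT and 81.1, 94.0, 99.2 and 77.5 CPM in KO, without overlap (log2 fold change -0.79, SE 0.13, edgeR adjusted p = 0.010). Slc27a5, which activates bile acids and long-chain fatty acids, fell by 0.44 (edgeR adjusted p = 0.019), a call lost without WT replicate 2 or 3 (adjusted p up to 0.069).

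Bile acid genes had 2 of 27 called lower and 0 higher (median -0.22), Slc27a5 and Cyp27a1, a mitochondrial sterol hydroxylase. In this list 12 were lower and 3 higher at an unadjusted p under 0.05. Cyp27a1 fell by 0.44 on the log2 scale (edgeR adjusted p = 0.031), and its call was lost in 6 of the 8 fits without 1 library (all but those without KO replicate 2 or WT replicate 4, adjusted p up to 0.099). Cyp7a1, the rate-limiting enzyme of the classic pathway, was at 187 CPM in WT and 207 CPM in KO (edgeR adjusted p = 0.81). Of 25 genes of cholesterol synthesis and uptake edgeR called 0, with 1 lower at an unadjusted p under 0.05, while DESeq2 called 1 lower and limma-voom 0.

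Genes of pericentral hepatocytes, which lie around the central vein, had 3 of 27 called lower and 0 higher, with a median of -0.28. Without adjustment, 9 were lower and 0 higher at a p under 0.05. Glul, glutamine synthetase, which marks the innermost ring of these cells, was at 1445, 1682, 1705 and 1682 CPM in WT and 1302, 1290, 1123 and 1033 CPM in KO. The groups did not overlap, though WT replicate 1 lay near the KO livers (log2 fold change -0.46, SE 0.10, edgeR adjusted p = 0.035). Nr1i3, the nuclear receptor CAR, fell by 0.56 and Slc1a2, a glutamate transporter, by 0.41 on the log2 scale. The call of Glul was lost without any 1 library but KO replicate 2 or WT replicate 1, that of Nr1i3 without WT replicate 2 or 3, and that of Slc1a2 without any but WT replicate 3 (adjusted p up to 0.12, 0.061 and 0.11). Without WT replicate 2 the list had 0 called. Cyp2e1, another pericentral gene, had a log2 fold change of -0.41 (edgeR adjusted p = 0.062).

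Of 23 periportal genes 2 were called lower and 1, Cdh1, higher (median -0.14). Cyp2f2, a cytochrome P450 of periportal cells, was at 780, 811, 875 and 716 CPM in WT and 556, 484, 550 and 493 CPM in KO, without overlap (log2 fold change -0.61, SE 0.09, edgeR adjusted p = 0.0058). So genes called lower came from both ends of the lobule. Of 29 hepatocyte transcription factors and secreted proteins edgeR called 0, with 11 lower at an unadjusted p under 0.05 and a median of -0.20, while DESeq2 called 3 lower and limma-voom 0. Hnf4a, the factor that maintains hepatocyte identity, had a mean of 561 ± 18.02 CPM (SD, n = 4) for WT and of 472 ± 35.7 CPM (SD, n = 4) for KO (edgeR adjusted p = 0.18).

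The diet is low in methionine and lacks choline, and 3 of 33 genes of their metabolism were called, all lower (median -0.15). Of the 33, 10 were lower and 2 higher at an unadjusted p under 0.05. Bhmt, which makes methionine from homocysteine with betaine, was at 2838, 2497, 2202 and 2280 CPM in WT and 1654, 1327, 1630 and 1557 CPM in KO. The groups were well apart (log2 fold change -0.67, SE 0.11, edgeR adjusted p = 0.0081). Dmgdh, the next step of betaine breakdown, fell by 0.33 and Ahcy, which releases homocysteine, by 0.52 on the log2 scale, calls lost in 8 and 7 of the 8 fits without 1 library (Ahcy kept it without KO replicate 3) with adjusted p up to 0.15 and 0.12. Pemt, which makes phosphatidylcholine by methylation, was at 311 CPM in WT and 316 CPM in KO (edgeR adjusted p = 0.96). Of 34 genes of the urea cycle and amino acid breakdown edgeR called 0, with 32 negative, 10 lower at an unadjusted p under 0.05 and a median of -0.15; DESeq2 called 4 lower and limma-voom 1.

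Of 46 cytochromes P450, sulfotransferases and glucuronosyltransferases, 5 were called lower and 1 higher (median -0.18), with 14 lower and 5 higher at an unadjusted p under 0.05. The genes lower included Ugt3a2 and Cyp4b1. Ugt3a2, a glycosyltransferase of foreign compounds, was at 377, 392, 418 and 401 CPM in WT and 299, 246, 295 and 290 CPM in KO, and Cyp4b1 was at 23.7, 22.2, 21.9 and 20.4 CPM in WT and 15.6, 12.8, 14.9 and 13.1 CPM in KO. Both were lower in each KO liver (log2 fold changes -0.49 and -0.64, edgeR adjusted p of 0.011 and 0.0081). Members of families with near-identical copies are uncertain because their reads could be split. Among these, Cyp3a25 fell by 0.46, Sult3a1 by 2.26 at under 2 CPM, and Cyp2a4, a female-biased steroid hydroxylase, rose by 0.93 on the log2 scale. Sult2a8, a bile acid sulfotransferase of the same kind, fell by 1.41, its mean being 192 ± 32.3 CPM (SD, n = 4) for WT and 72.1 ± 22.8 CPM (SD, n = 4) for KO. The call of Cyp3a25 was lost without KO replicate 1 or 4 or WT replicate 1 or 3, that of Sult3a1 without WT replicate 3, that of Cyp2a4 without KO replicate 1 or 4 or WT replicate 1, 2 or 3, and that of Sult2a8 without any library but KO replicate 2 or 3, with adjusted p up to 0.087, 0.052, 0.11 and 0.082.

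Of 34 sex-biased and growth hormone responsive genes 2 were called higher and 2 lower (median -0.23), with Hao2, a peroxisomal hydroxyacid oxidase, higher by 1.14 on the log2 scale at under 5 CPM, a call lost in each of the 8 fits without 1 library (adjusted p up to 0.11). Of 32 acute-phase and complement genes 1 was called lower, Saa3, a serum amyloid A of macrophages and other non-hepatocyte cells. It was at 46.1, 43.9, 46.6 and 50.2 CPM in WT and 31.1, 30.4, 32.3 and 22.3 CPM in KO, without overlap (log2 fold change -0.69, SE 0.11, edgeR adjusted p = 0.0085). Abundant genes called lower also included Pigr, the receptor that carries immunoglobulin A into bile, at 1655, 1709, 1823 and 1728 CPM in WT and 1268, 1325, 1343 and 1284 CPM in KO (log2 fold change -0.41, SE 0.08, edgeR adjusted p = 0.022), and Mug1, a protease inhibitor of plasma with near-identical copies (-0.56). The call of Pigr was lost without KO replicate 1 or WT replicate 2, 3 or 4 (adjusted p up to 0.077), and that of Mug1 without WT replicate 3 (adjusted p = 0.05).

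The largest fall among genes of at least 2 CPM in WT that the rule named was that of Meg3, an imprinted long RNA. It was at 4.26, 10.6, 4.25 and 6.10 CPM in WT and 0.816, 0.630, 1.59 and 2.54 CPM in KO. No KO liver reached the WT range, although both groups varied widely (log2 fold change -2.172, SE 0.45, edgeR adjusted p = 0.039), and the call was lost in 7 of the 8 fits without 1 library (all but that without KO replicate 4, adjusted p up to 0.10). Other nuclear long RNAs were not called, with Neat1 at -0.75 (edgeR adjusted p = 0.12) and Malat1 at -0.26 (edgeR adjusted p = 0.56).

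Aqp4, a water channel, was at 26.8, 26.9, 25.0 and 20.4 CPM in WT and 14.7, 12.4, 8.37 and 14.2 CPM in KO. Its level was about halved in KO without overlap (log2 fold change -1.0, SE 0.16, edgeR adjusted p = 0.0087). Cntnap1 (-1.25), Serpina12 (-0.95), which encodes vaspin, Gpc1 (-0.81), a glypican, and Mcm10 (-0.79), a replication factor, were also called lower. Each lost the call without WT replicate 2 or 3, Cntnap1 also without KO replicate 4 or WT replicate 1, Serpina12 without KO replicate 1 or 4, Gpc1 without KO replicate 4 or WT replicate 1 or 4, and Mcm10 without KO replicate 1, with adjusted p up to 0.075, 0.066, 0.066 and 0.067. Ctcflos (-1.29), an antisense RNA whose reads cannot be told apart from those of its partner, lost it without KO replicate 1 or 4 or WT replicate 2 (adjusted p up to 0.078). The pseudogenes Cyp2d37-ps (-0.93) and Cyp2d38-ps (-1.07), whose reads may come from near-identical genes, lost it without KO replicate 4 or WT replicate 4 and without any library but KO replicate 4 (adjusted p up to 0.051 and 0.14).

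Cell cycle genes had 37 of 38 log2 fold changes above 0 and a median of 0.36, but 1 was called, Gmnn, a regulator of replication licensing (0.64, edgeR adjusted p = 0.041), and its call was lost in 7 of the 8 fits without 1 library (all but that without KO replicate 1, adjusted p up to 0.13). The summed level of the list was 750, 584, 536 and 473 CPM in WT and 682, 450, 688 and 795 CPM in KO, so that the groups overlapped, KO replicate 2 being the lowest of all 8 livers. Without KO replicate 2 edgeR called 5 members higher. Mki67, the usual proliferation marker, was at 38.3 CPM in WT and 51.1 CPM in KO (edgeR adjusted p = 0.74).

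Interferon-stimulated genes had 30 of 37 log2 fold changes below 0 (median -0.29), and edgeR called 0, with 14 lower at an unadjusted p under 0.05. DESeq2 called 5 lower and limma-voom 3. The summed level of the list was 1560 to 1695 CPM in WT livers and 1316, 1002, 1853 and 1563 CPM in KO, so that KO replicate 3 lay above all WT livers and KO replicate 2 far below. Without KO replicate 2 the median was -0.16 with 1 called lower, and without KO replicate 3 it was -0.39 with 4 called lower. Rsad2, an antiviral enzyme, had a mean of 39.0 ± 5.39 CPM (SD, n = 4) for WT and of 25.1 ± 5.49 CPM (SD, n = 4) for KO (edgeR adjusted p = 0.06). Lists for NRF2 targets, the unfolded protein response, p53 targets, the clock and glucose handling had 0 called by edgeR and medians between -0.10 and 0.06, with 3, 4, 2, 0 and 7 members at an unadjusted p under 0.05. DESeq2 called 1 gene in the unfolded protein list and 1 in the glucose list, limma-voom 1 in the glucose list, and both called 0 in the others.

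The same contrast on chow shares no library with that on HFMCD. The chow mice were 10 weeks old, so that diet and age cannot be told apart. Fitted alone, the 13 chow libraries gave 2 called genes of 14147 (0.0141%), and Mboat7 was one of them (log2 fold change -0.75, SE 0.07, edgeR adjusted p = 0.00014). At an unadjusted edgeR p under 0.05 there were 2328 genes on chow (16.5%), against 14.6% on HFMCD. The few calls on chow therefore do not show that the deletion changed less there. Of the genes called on HFMCD, 250 had a value on chow, and 195 of these had the same sign there, against 7565 of 13299 genes in all. By direction, 147 of 170 genes called higher and 48 of 80 called lower had the same sign. The median log2 fold change on chow was 0.27 for the 170 genes called higher and -0.08 for the 80 called lower. On HFMCD the medians were 1.0 over all 216 genes called higher and -0.59 over the 80 called lower. These genes were chosen by their HFMCD values. A smaller change on chow is therefore expected from the choice alone, and these medians cannot compare the diets.

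The plot of both diets shows most genes called higher on HFMCD above 0 on chow but below the line of equal change. Choosing the genes by their HFMCD values favours that position. The duct list's median on chow was 0.16, over the 26 members with a value there, against 1.32 over 29 members on HFMCD. The lists were chosen with earlier results of these data known, which limits a comparison of their medians between the diets. Spp1 had a log2 fold change of 0.17 on chow and Prom1 of 0.24. The collagen list's median was 0.34 on chow over 21 members, close to its 0.42 on HFMCD over 25. Col3a1 had a log2 fold change of 0.98 on chow with an SE of 0.57. Elovl3 (-1.06 on chow) and Aqp4 (-1.87 on chow) had the same sign on both diets, Meg3 (0.87 on chow) the opposite one.

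Whether the effect of the deletion differed between the diets was tested as an interaction over all 21 libraries and 15677 genes. edgeR called 0 genes (0%), with 1581 (10.1%) at an unadjusted p under 0.05, while DESeq2 called 99 (0.631%) and limma-voom 10 (0.0638%). For Spp1 the difference, HFMCD minus chow, was 1.43 (SE 0.38, edgeR adjusted p = 0.18), and for Prom1 it was 1.76 (SE 0.63, edgeR adjusted p = 0.35). For Mboat7 it was -0.18 (SE 0.12, edgeR adjusted p = 0.66). Calls on HFMCD that were missing on chow are therefore not shown by edgeR to differ between the diets.

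**Figure D5:**
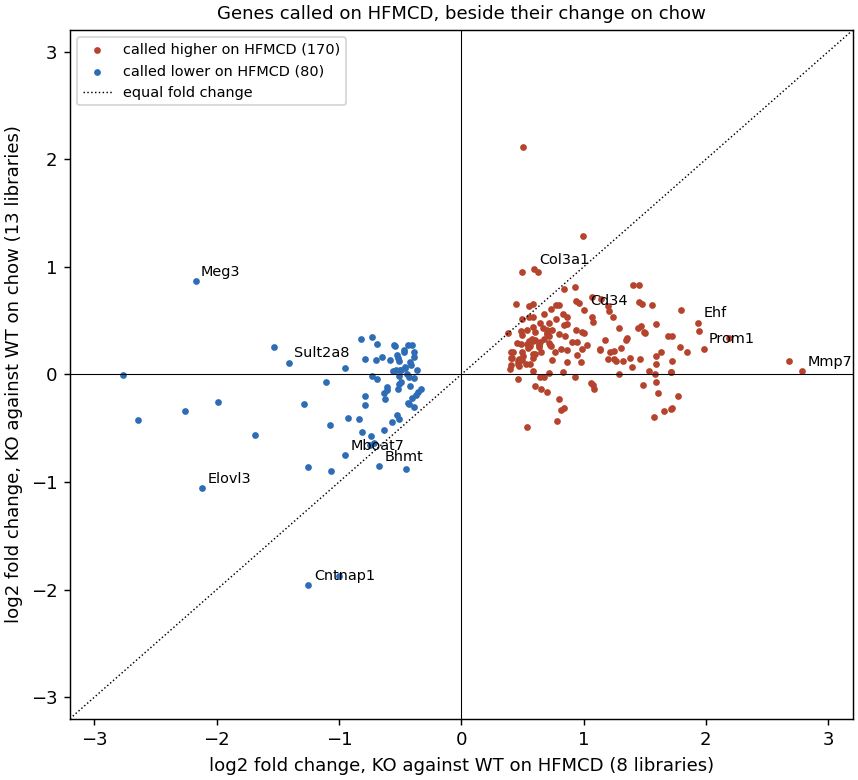
Each point is 1 of the 250 genes called on HFMCD that had a value on chow; the x axis gives the log2 fold change, KO against WT, from the 8 HFMCD libraries and the y axis that from the 13 chow libraries, with a dotted line of equal change. Of 170 genes called higher 147 lie above 0 on chow, mostly under the dotted line, and of 80 called lower 48 lie below 0. The genes were chosen by their HFMCD values, which favours a smaller change on chow.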

How the data were processed

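The authors deposited raw read counts per gene symbol for each library, with no normalization. CASAVA 2.17, STAR 2.6.1d, featureCounts 1.6.1 and GRCm38 are named, without roles, per the submitters' processing notes; annotation, strand setting and filters are not given in the sources used here. All 55418 symbols matched GENCODE release M21, which gave positions. Exons of 41 of the 119 genes named by rule overlap a gene on the other strand, and their reads could not be told apart.

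The 8 HFMCD libraries were fitted alone with edgeR 4.0.16 in R 4.3.3 (filterByExpr, TMM scaling, robust quasi-likelihood, two-sided, no covariate), with Benjamini-Hochberg adjustment over 14424 genes and a threshold of 0.05. SE was taken as log2 fold change over root F. CPM uses TMM-scaled totals of tested genes, and log2 CPM a prior count of 2. The script was tested on simulated data. Totals of 22617598 to 25822972 counts give precision that falls with a gene's level; a gene at 1 CPM rests on few reads.

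Genes were named by rule: Mboat7; among called genes without overlap whose higher group averaged 2 CPM or more, the 15 largest and 15 smallest log2 fold changes, without clone or model names; the 6 most abundant called genes; up to 5 called members per list, or 2 as values; and cell markers. Other genes named were chosen after their values were seen. The comparison, the 45 lists and the rule were chosen with earlier results of these data known. No set test was run. Some genes are not reported here. Alternatives were DESeq2 1.42.0, limma-voom (limma 3.58.1), RLE and upper-quartile scaling, other filters, robust dispersions off, a fit of all 21 libraries, an added minimum absolute log2 fold change of 1, and leaving out each library.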

Additional observations from a re-analysis of the deposited data

Results flagged for a closer look

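Among the genes named by rule, each group of 4 libraries was searched for 1 library far from the other 3 (Dixon's test of the gap to its neighbour over the group's range, at 95%). Of 238 groups 14 held such a library, and chance gives about 1 in 20. Among KO livers, Sftpd was at 4.95 CPM in replicate 4 against 9.02 to 9.17 in the others. Angptl6 was at 5.40 CPM and Lox at 14.6 CPM in the same library. KO replicate 2 stood apart for Itgb8 at 5.87 CPM, Cxcr2 at 0.787 CPM and Pck1, the first enzyme of gluconeogenesis, at 1413 CPM against 746 to 808 in the others. KO replicate 3 stood apart for Sult3a1 at 0.388 CPM and Xist at 127 CPM, against 284 to 313 CPM for Xist in the others.

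Among WT livers, replicate 1 stood apart for Gpc1 at 34.8 CPM and Glul at 1445 CPM. Replicate 2 stood apart for Scube3 at 0.376 CPM and Fitm1 at 13.6 CPM, replicate 3 for Cd34 at 11.1 CPM and replicate 4 for Pcx at 541 CPM.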

How the results depend on the processing

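The counts of called genes (296, of them 216 higher and 80 lower) were within 1.5 times of these values with RLE or upper-quartile scaling, a filter of 1 CPM in 4 libraries, or robust dispersions off. They came to 629 (374 higher, 255 lower) with DESeq2, to 738 (437 and 301) with no low-count filter, to 50 (35 and 15) with all 21 libraries in 1 fit and to 123 (15 of them lower) with an absolute log2 fold change of at least 1, and limma-voom called 126 lower. DESeq2 kept 296 of the 296 genes and the 21-library fit 45. Without 1 library, 125 to 305 genes were called, 98 to 204 higher and 27 to 101 lower. The Mboat7 log2 fold change then ran from -1.005 to -0.871. Of 84 named called genes, 45 were called in each fit without 1 library and 13 under each of the other fits, scalings and filters as well (the minimum fold change is not counted here), and 67 lost the call in the 21-library fit. The test of the difference between the diets called 0 with edgeR, 99 with DESeq2 and 10 with limma-voom. The causes of these changes were not tested. A fit without 1 library also has fewer samples, so that effect and the effect of the library left out cannot be told apart. Of 450 list medians 442 moved little, 7 moved further and 1 moved far past 0, that of erythroid genes, whose values without 1 library ran from -0.233 to 0.416, the last without WT replicate 1. The log2 fold change of Cela1, not called, then ran from -0.133 to 0.003, the last without WT replicate 2. No paired analysis was possible because the labels give KO and WT no shared replicate numbers. Genes under 1 CPM rest on few reads, and small changes there are not detectable at this depth.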

Other observations

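Genes called on HFMCD outside the lists, named after their values were seen, added transporters and channels of epithelia. Slc5a1, the sodium-glucose cotransporter of gut and duct, was at 3.11, 3.14, 3.64 and 2.77 CPM in WT and 7.69, 11.2, 5.50 and 7.01 CPM in KO, without overlap (log2 fold change 1.31, SE 0.21, edgeR adjusted p = 0.0081). Clic6, a chloride channel family member at under 3 CPM in every library, rose by 3.02 (SE 0.51, edgeR adjusted p = 0.010). Among signalling genes called lower were Inhbc, an activin chain made by hepatocytes (-0.73, edgeR adjusted p = 0.015, lost without WT replicate 2 or 3 with an adjusted p up to 0.052), and Npr2, a receptor for C-type natriuretic peptide, at 40.7, 46.8, 42.9 and 39.4 CPM in WT and 31.6, 26.5, 25.1 and 30.01 CPM in KO (log2 fold change -0.58, SE 0.10, edgeR adjusted p = 0.0090).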
